A study of Homo sapiens with 4 samples.

Results

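*FCGR2A*, *SPI1*, *CD68*, *IL21R*, *CD3D*, *AKNA*, *NFKB2* and *CR2* are receptors, markers and regulators of myeloid and lymphoid cells, and they were examined here in K562, an established human erythroleukemia cell line. These 8 genes were chosen by their symbol from a deposited table of 143 genes, with their values in that table already known. K562 cells of both groups received 10 µM hemin, which drives them toward the erythroid lineage. The TRIAC group also received 20 µM 3,3′,5-triiodothyroacetic acid (TRIAC), a thyroid hormone metabolite, and the control group received DMSO, for 48 h, with 2 RNA-seq libraries in each group. The sources used here do not say whether both libraries of a group were grown as separate cultures.

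For each gene the table gives 1 expression value per group, a pooled value from the authors, and a length in bases. It gives no value for a single library, so no SD and no test could be computed, and the depth is unknown. The unit of the values is not stated. In 4 cases below a value of 10, genes of different lengths share the same value, so the values were taken as not yet length-corrected. A level below is therefore given either as deposited or per kilobase of the listed length, and a change is the log2 ratio of the TRIAC value to the DMSO value. Of the 143 genes, 140 are above 0 in both groups, and the smallest difference among them is 2.73 times. The table holds only genes that differ in this way, so the 8 genes had to differ too, and their count of changes is a description of the choice. A gene that has no row was not analysed here.

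K562 cells come from a leukemia that can mature along the erythroid or the megakaryocytic path and that also carries gene products of other blood lineages. In blood formation, the ETS factor PU.1, encoded by *SPI1*, drives myeloid and B-cell genes, and it and the erythroid factor GATA1 can inhibit each other. Fc receptors bind the constant part of antibodies, complement receptors bind fragments of complement deposited on a target, and cytokine receptors signal through JAK kinases and STAT factors. NF-κB factors carry signals from many of these receptors to the nucleus.

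Of the 8 genes, 7 had a lower value with TRIAC by at least 2 times, which is 87.5%, beside 57.1% of the 140 genes above 0 in both groups. The remaining gene, *CR2*, had a higher value, which is 12.5% beside 42.9% of the 140 genes. Since the genes were selected on this contrast, nothing is read from these shares. The median log2 ratio was -2.48 over the 8 genes and -1.82 over the 140 genes. The 7 lower genes had a median of -2.77, close to the median of -2.58 over all 80 lower genes of the table, and 4 of the 7 lie below that median. Their summed values went from 3589.8 with DMSO to 636 with TRIAC, so that 17.7% was left. In RNA from bulk cultures, fewer cells that express a gene and less RNA per cell cannot be told apart.

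**Figure D1:**
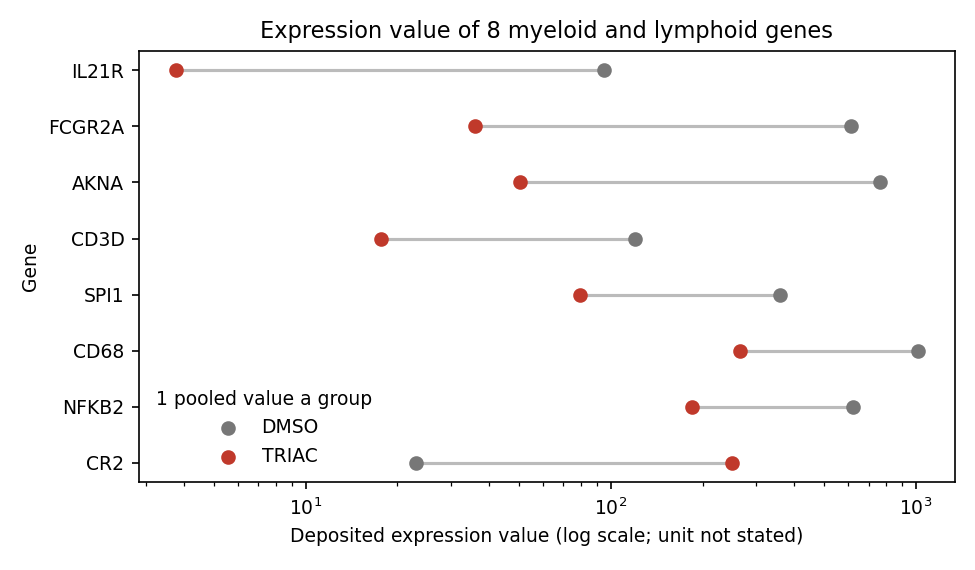
Deposited expression value (horizontal axis, log scale, unit not stated) of the 8 genes (vertical axis) of K562 cells with DMSO (gray points) and with TRIAC (red points), with 1 pooled value per group and no error. The line of *IL21R* runs from 95.3 down to 3.76, and only the line of *CR2* runs toward a higher value, from 23.0 to 251.

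The bases that lie before the annotated starts of these genes were read for short motifs of the factors among them, of the thyroid hormone receptor and of GATA factors. RefSeq windows of GRCh38.p14 were found for 7 of the 8 genes, 10 windows in all, and the 250 bases before each start were searched on both strands; *SPI1* has no window. The PU.1 core GAGGAA lies in 3 of the 10 windows, those of *FCGR2A*, *CD3D* and *CD68*, and in 23.6% of the 35116 windows of the RefSeq table. The κB consensus, which NF-κB factors bind, lies in 2 of the 10 windows and in 5.21% of all windows. Both are among the 3 windows of *NFKB2*. The GATA motif AGATAA lies in the *FCGR2A* window alone among the 10, against 9.17% of all windows. The thyroid hormone half-site AGGTCA lies in none of the 10 windows and in 12.1% of all windows. None of the motifs lies in the window of *CR2*, and none lies in those of *IL21R* and *AKNA*, which had lower values with TRIAC. The windows of *IL21R* and *AKNA* lie inside the ranges that RefSeq gives for these genes. The bases before the outermost starts of these genes were therefore not searched. A match is a description of these letters and does not show binding. No test was made of these counts.

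Shown are the windows of the receptor genes *FCGR2A* and *CD3D*, which hold the PU.1 core, the window of *NFKB2* before the start of its main transcript, and that of *CR2*, which holds none of the motifs. Each is read 5′ to 3′ on the strand of the gene, and capitals mark the motifs, none of which overlaps another in these bases. Bases that GENCODE 44 places in an exon are left out, except the last base of the second κB match of *NFKB2*. The *FCGR2A* bases are chr1:161505207-161505429 on the plus strand, with the PU.1 core on the minus strand, starting 45 bases before the annotated start, and the GATA motif, also on the minus strand, starting 151 bases before it. The *CD3D* bases are chr11:118342706-118342955 on the minus strand of the chromosome, with the PU.1 core on the opposite strand of the gene, starting 18 bases before the start. The *NFKB2* bases are chr10:102395455-102395693 on the plus strand, with κB matches starting 176 and 21 bases before the start. The *CR2* bases are chr1:207454078-207454229 on the plus strand.
*FCGR2A*: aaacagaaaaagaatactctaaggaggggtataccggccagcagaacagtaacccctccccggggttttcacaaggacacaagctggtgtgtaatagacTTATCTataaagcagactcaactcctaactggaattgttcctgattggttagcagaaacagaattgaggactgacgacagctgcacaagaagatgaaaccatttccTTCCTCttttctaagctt
*CD3D*: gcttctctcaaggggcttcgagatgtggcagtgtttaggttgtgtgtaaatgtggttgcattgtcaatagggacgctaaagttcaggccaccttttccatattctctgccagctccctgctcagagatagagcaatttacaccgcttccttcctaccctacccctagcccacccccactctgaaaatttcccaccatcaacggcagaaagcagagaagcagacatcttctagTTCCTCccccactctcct
*NFKB2*: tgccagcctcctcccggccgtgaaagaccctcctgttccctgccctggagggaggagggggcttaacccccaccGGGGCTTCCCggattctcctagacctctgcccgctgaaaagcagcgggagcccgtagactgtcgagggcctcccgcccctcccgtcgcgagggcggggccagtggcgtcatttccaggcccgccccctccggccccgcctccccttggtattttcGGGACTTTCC
*CR2*: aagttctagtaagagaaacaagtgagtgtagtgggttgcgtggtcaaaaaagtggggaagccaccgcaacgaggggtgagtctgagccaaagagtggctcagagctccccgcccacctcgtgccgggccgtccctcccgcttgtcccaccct

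Among the receptor genes, 3 of 4 had a lower value with TRIAC, beside 57.1% of the 140 genes above 0 in both groups. This count, too, describes the choice of genes. *FCGR2A* (NCBI Gene 2212) encodes the Fcγ receptor IIa (CD32), which binds IgG and signals through an ITAM motif in its own tail. RefSeq places it on chromosome 1 of GRCh38.p14 from 161505457 to 161524048, on the plus strand, and the main transcript in GENCODE 44 has 7 exons. Positions and exons of the other genes come from the same annotations. The deposited value of *FCGR2A* was 613 with DMSO and 35.8 with TRIAC, which is 17.1 times lower, a log2 ratio of -4.10. With 252 per kilobase it had the second highest level per length of the 8 genes in control cells, and with 14.8 per kilobase the sixth in TRIAC-treated cells. Part of its sequence is shared with related or overlapping genes. Of the windows of 50 bases in its main transcript, 47.7% also lie in a transcript of another gene. These include 13.5% in *FCGR2C*, 6.66% in *FCGR2B*, and 31.4% and 7.66% in unnamed long noncoding RNAs on the same strand. The sources used here do not say how reads that match several genes were counted, which leaves the value of *FCGR2A* uncertain.

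*IL21R* (NCBI Gene 50615) encodes the receptor for interleukin 21, which pairs with the common γ chain and signals through JAK kinases and STAT factors. The gene is on the plus strand of chromosome 16 from 27402174 to 27452042 and has 9 exons. The value was 95.3 with DMSO and 3.76 with TRIAC, 25.3 times lower, with a log2 ratio of -4.66. Among the 8 genes *IL21R* had the lowest log2 ratio and, with TRIAC, the lowest level per length, 0.833 per kilobase. Its log2 ratio ranks 7th from the lowest of the 140 genes. The ratio rests on a low value in TRIAC-treated cells. The antisense gene *IL21R-AS1* overlaps 1273 exon bases of *IL21R*, and no source used here says whether counting used the strand, so reads of this pair may not be separated.

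*CD3D* (NCBI Gene 915) encodes the δ chain of CD3, the signalling part of the T-cell receptor complex. The gene is on the minus strand of chromosome 11 from 118338954 to 118342705 and has 5 exons. With a listed length of 771 bases it is the shortest of the 8 genes. The value was 119.9 with DMSO and 17.6 with TRIAC, 6.81 times lower, a log2 ratio of -2.77. No window of 50 bases of its main transcript lies in a transcript of another gene. In control cells the level of *CD3D* per length was above that of *IL21R*, at 156 per kilobase against 21.1 per kilobase.

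*CR2* (NCBI Gene 1380) encodes complement receptor 2 (CD21), which binds C3d on mature B cells and follicular dendritic cells. The gene is on the plus strand of chromosome 1 from 207454328 to 207489892 and has 20 exons. Its value was 23.0 with DMSO and 251 with TRIAC, which is 10.9 times higher, a log2 ratio of 3.45. Per length, *CR2* had the lowest level of the 8 genes in control cells, 5.71 per kilobase. With TRIAC it had the second highest level after *CD68*, 62.3 per kilobase. Its log2 ratio ranks 21st from the highest of the 140 genes, above the median of 2.89 over the 60 higher genes. No window of its main transcript is shared with another gene, including *CR1*, its neighbour in the same family.

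*FCGR2A* and *CR2*, which both encode receptors of the humoral immune response, exchanged their order. Per kilobase, the level of *FCGR2A* was 44.2 times that of *CR2* in control cells, and that of *CR2* was 4.22 times that of *FCGR2A* with TRIAC. The uncertain part of *FCGR2A* enters both quotients. The exchange is not particular to this pair, since *CR2* went from below all the other chosen genes to above all but *CD68*. This pair was named with its values already known, and both genes are in the table because they differ, so the exchange is a description.

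All 3 genes of nuclear regulators had a lower value with TRIAC, beside 57.1% of the 140 genes above 0 in both groups. As they were selected on this contrast, nothing is read from this count. *SPI1* (NCBI Gene 6688), the gene of PU.1, is on the minus strand of chromosome 11 from 47354860 to 47378547 and has 5 exons. The value was 359 with DMSO and 79.1 with TRIAC, 4.54 times lower, with a log2 ratio of -2.18. Its main transcript shares no window of 50 bases with another gene. In control cells its level of 252 per kilobase was almost the same as that of *FCGR2A*, and in TRIAC-treated cells it was 55.5 per kilobase against 14.8 per kilobase.

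*NFKB2* (NCBI Gene 4791) encodes p100, which holds back NF-κB partners in the cytosol and is cut to the DNA-binding p52 in the noncanonical pathway. Its position is chromosome 10, plus strand, from 102394110 to 102402529, and the main transcript has 23 exons. Its value was 622 with DMSO and 184 with TRIAC, 3.38 times lower. The log2 ratio of -1.76 was the smallest change of the 8 genes. Per length, *NFKB2* lay below *FCGR2A* in control cells, with 199 per kilobase, and above it with TRIAC, with 58.9 per kilobase.

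*AKNA* (NCBI Gene 80709) encodes an AT-hook protein described as an activator of the genes of CD40 and its ligand, and also found at centrosomes. Its position is chromosome 9, minus strand, from 114330504 to 114398472, and its listed length of 5204 bases is the longest of the 8 genes. The value went from 766 in control cells to 50.6 in TRIAC-treated cells, 15.1 times lower, with a log2 ratio of -3.92. By deposited value *AKNA* ranks second among the 8 genes in control cells. Per kilobase it ranks sixth there, with 147, and seventh in TRIAC-treated cells, with 9.72.

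*CD68* (NCBI Gene 968) encodes a heavily glycosylated membrane protein of lysosomes and endosomes that serves as a macrophage marker. Its position is chromosome 17, plus strand, from 7579638 to 7582111, and the main transcript has 6 exons. The value was 1014 with DMSO and 265 with TRIAC, 3.83 times lower, a log2 ratio of -1.94. *CD68* had the highest level of the 8 genes in both groups, with 544 per kilobase with DMSO and 142 per kilobase with TRIAC. An unnamed long noncoding RNA on the same strand holds 91.9% of the windows of 50 bases of its main transcript, so that reads of both cannot be told apart by sequence.

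**Figure D2:**
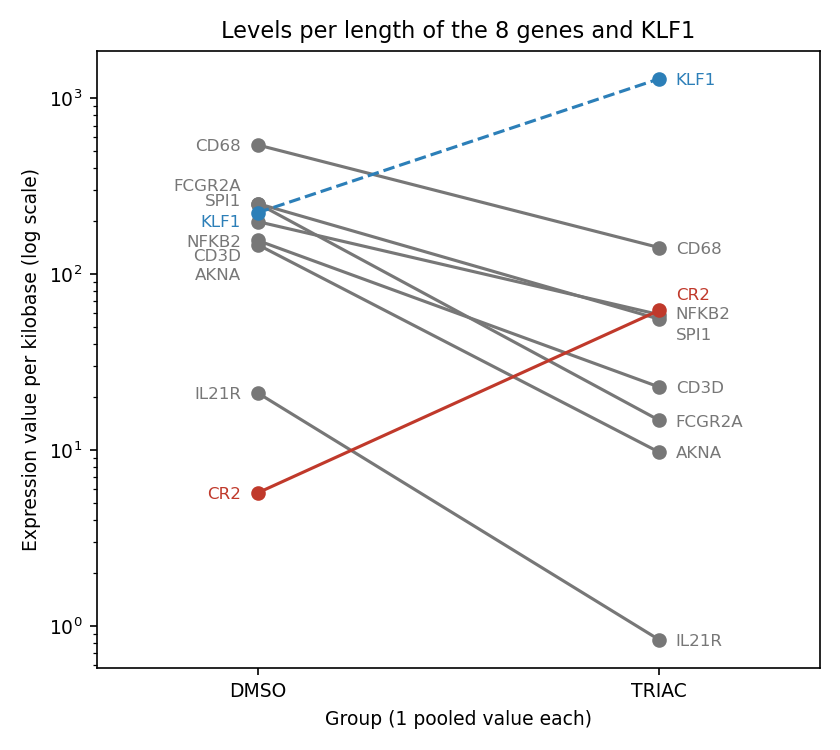
Expression value per kilobase of listed length (vertical axis, log scale) of the 8 genes and of *KLF1* (dashed, blue) in the DMSO and TRIAC groups (horizontal axis), with 1 pooled value per group and no error. *CD68* is the highest of the 8 genes in both groups, and *CR2* (red) goes from the lowest to the second highest.

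Per kilobase, the highest level among the 8 genes was 95.2 times the lowest with DMSO and 170 times the lowest with TRIAC. In control cells *FCGR2A* and *SPI1* differed by less than 1 per kilobase, and in TRIAC-treated cells *CR2*, *NFKB2* and *SPI1* lay between 55.5 and 62.3 per kilobase. Without an error per value, neighbours in this order cannot be said to differ.

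Within the table, the change of *FCGR2A* and *AKNA* was large for their level. Among 22 other lower genes whose mean value lies within 2 times that of *FCGR2A*, 21 had a smaller change, and their median log2 ratio was -2.35. For *AKNA*, 22 of 23 such genes had a smaller change, and for *IL21R* 15 of 16. The opposite was found for *NFKB2*, for which 1 of 24 such genes had a smaller change, and for *CD3D*, with 4 of 21. For *SPI1* and *CD68*, 7 of 24 and 6 of 23 such genes had a smaller change. For *CR2*, 14 of 19 higher genes of similar mean value had a smaller change. These comparisons were added with the values already seen, on the contrast that chose the genes, and are given without a test.

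**Figure D3:**
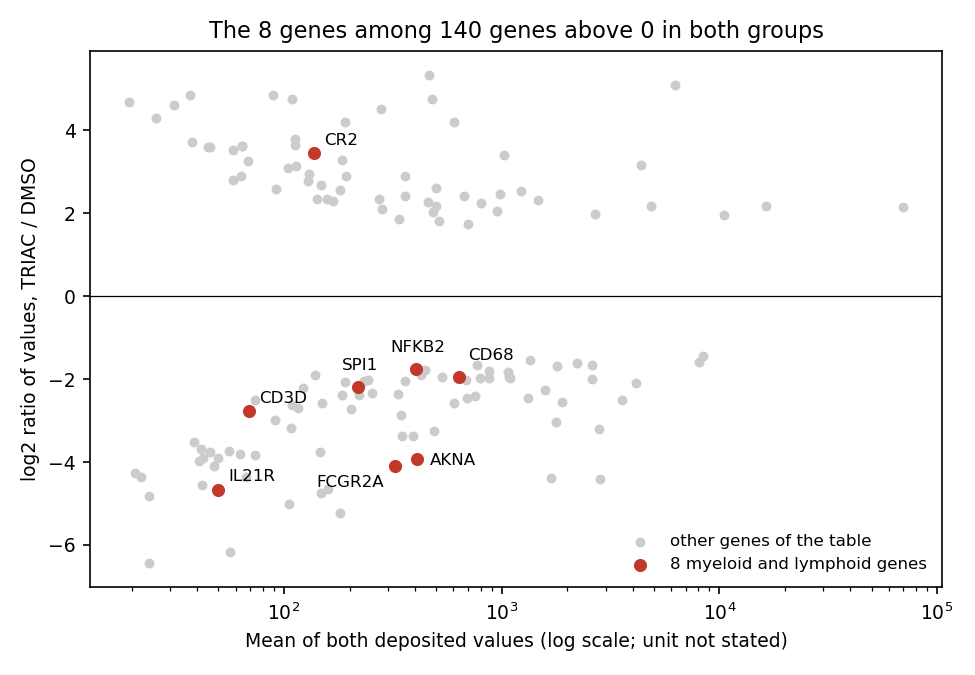
Log2 ratio of the TRIAC value to the DMSO value (vertical axis) against the mean of both deposited values (horizontal axis, log scale, unit not stated) for the 140 genes above 0 in both groups, with the 8 genes in red. Small changes are missing from the table at every level, *FCGR2A* and *AKNA* lie below most lower genes of similar mean value, and *CR2* lies among the higher genes.

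The gene nearest to each of the 8 genes, among the other genes of the table with the 8 left out, was found by the distance between log2 values in both groups, so the measure rests on 2 values per gene. *NFKB2* was nearest to *FAM129A*, at a distance of 0.11, *CD68* to *DLGAP1-AS2*, at 0.12, and *SPI1* to *ZNF697*, at 0.17. *IL21R* was nearest to *FAM107B*, at 0.28, *CR2* to *SLC22A4*, a carnitine and ergothioneine transporter, at 0.30, and *CD3D* to *PIP5KL1*, at 0.34. *AKNA* and *FCGR2A* were both nearest to *STC2*, a secreted glycoprotein, at 0.39 and 0.77.

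Related genes were taken from 10 lists of myeloid and lymphoid genes with 185 genes in all, the 8 genes included. Of these, 10 genes have a row and 175 have none. The listed genes with a row other than the 8 are *CEBPB* and *CORO1A*. Both were lower, beside 57.1% of the 140 genes above 0 in both groups, and nothing is read from this count. The lists were written with earlier results of these data known and do not cover every related gene of the table. Genes outside them were not counted, among them *LCP2* and *HLA-E*, which were lower, and *ID2* and *THBD*, which were higher. *CEBPB* encodes C/EBPβ, a transcription factor of macrophages and of stress responses. Its value was 1675 with DMSO and 470.4 with TRIAC, a log2 ratio of -1.83. *CORO1A* encodes coronin 1A, an actin regulator of leukocytes. Its value went from 127 to 6.18, a log2 ratio of -4.36. Of the 21 listed genes of Fc receptors and ITAM signalling, *FCGR2A* alone has a row, and none of the kinases *SYK*, *LYN* and *BTK* has one. Of 22 genes of common γ chain receptors and JAK-STAT signalling, *IL21R* alone has a row. The same holds for *CD3D* among 15 genes of the T-cell receptor, with no row for *CD3E* or *CD3G*. It holds for *NFKB2* among 23 NF-κB subunits and regulators, with no row for *RELB* or *MAP3K14*, and for *CR2* among 15 genes of B cells and complement receptors, with no row for *CR1*. None of 22 myeloid products, such as *MPO*, *CSF1R* and *ITGAM*, has a row. Since no value of a gene without a row was seen, none can be called unchanged or absent.

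**Figure D4:**
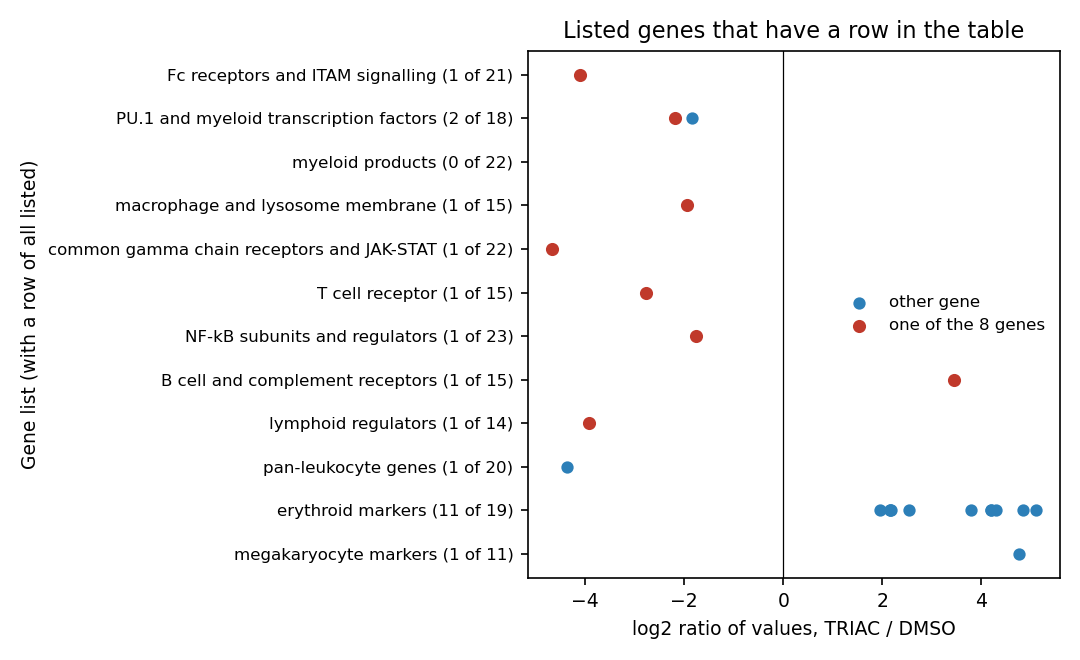
Log2 ratio of the TRIAC value to the DMSO value (horizontal axis) for the genes of 12 lists that have a row in the table (vertical axis, with the number that have a row of all listed), the 8 genes in red and other genes in blue. Each list of myeloid and lymphoid genes holds at most 2 such genes, while 11 of 19 erythroid markers have a row and all 11 lie above 0. Of the 140 genes above 0 in both groups, 42.9% had a higher value with TRIAC. The lists were written with earlier results of these data known.

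The erythroid label of the cells was set beside a list of 19 erythroid markers. Because the table holds only genes that differ between the groups, the list cannot test that label. Of the 19 markers, 11 have a row, all with a higher value with TRIAC and log2 ratios from 1.96 to 5.09. Of the 140 genes above 0 in both groups, 42.9% were higher. This list, too, was written with earlier results of these data known. Their values in control cells went from 2.49 for *AHSP*, a chaperone of α-globin, and 2.51 for *HBB*, the adult β-globin, to 25809 for *HBG2*, a fetal globin. Of 11 megakaryocyte markers, *TUBB1* has a row, with a value of 34.2 in control cells and 927 with TRIAC. *SPI1* can be set beside *KLF1*, an erythroid transcription factor of that list. The deposited value of *KLF1* was 362 with DMSO and 2088 with TRIAC, a log2 ratio of 2.53. Per kilobase, the level of *KLF1* was 0.888 times that of *SPI1* in control cells and 23.3 times that of *SPI1* with TRIAC. This pair was chosen after its values were seen, and both genes are in the table because they differ, so the change of the quotient is a description. Whether the lower myeloid genes and the higher erythroid genes come from the same cells was not tested.

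The annotation columns of the table list terms that some of the 8 genes share. The genes were chosen by type and on this contrast. Shared terms, and counts that include the 8 genes, therefore describe that choice. *SPI1*, *NFKB2* and *AKNA* carry the term for sequence-specific DNA binding at proximal promoters. The other genes of the table with this term are *ATF3*, *JDP2* and *SMAD6*. All 3 were lower, in a table in which 57.1% of the genes above 0 in both groups were lower. The same 3 genes carry the term for transcriptional activators at proximal promoters, whose remaining gene in the table, *DBP*, was higher. *CD3D*, *AKNA* and *NFKB2* carry the term for positive regulation of transcription. Of the other 4 genes of the table with this term, 2 were lower and 2 higher. *FCGR2A*, *SPI1* and *NFKB2* are in the pathway of osteoclast differentiation, in which myeloid precursors become bone-resorbing cells. The table holds 5 genes of this pathway, 4 of them lower, and besides the 3 genes these are *LCP2*, an adaptor of immune receptors, which was lower, and *EMID1*, which was higher. *CD3D* and *CR2* are in the pathway of hematopoietic cell lineage, with *HLA-E*, *ITGA5* and *EMID1*, and of these 5 genes 3 were lower and 2, *CR2* and *EMID1*, were higher. *FCGR2A* and *CR2* share several terms despite their opposed directions. Innate immune response has 5 genes in the table, of which 4 were lower and *CR2* was higher. Extracellular exosome has 44 genes, with 27 lower and 16 higher. Integral component of membrane has 24 genes, with 15 lower and 9 higher. *AKNA* has no pathway entry. Some entries of the table look misplaced, such as *SPI1* among integral components of membranes, so the terms are given as deposited.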

How the data were processed

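RNA-seq of hemin-treated K562 cells with TRIAC or DMSO was used, with 2 libraries per group, grouped by the sample titles. The authors deposited 1 expression signal value per gene and group in a table of 143 genes; the pooling of libraries and the normalization are not given in the sources used here, apart from lists of tools. Bowtie2, RSEM and edgeR stand in the submitters' processing notes, with FastQC, Trimmomatic, CASAVA 1.8 and the build GRCh38, whereas their design text names BWA, TopHat and Cufflinks. The table also holds the authors' fold changes, p-values, adjusted p-values and directions, which were not used. Depth per library is unknown.

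Log2 ratios, values per 1000 bases of listed length and ranks were computed without a pseudocount and without a test. The 8 genes, the gene lists and the rule for named genes (the 8 genes, listed genes with a row, and the nearest gene to each outside the 8) were chosen with earlier results of these data known. Alternatives were a pseudocount of 1, a 4-fold limit, a filter at the lower quartile of mean value, and levels as deposited. All 8 gene identifiers matched RefSeq genes of GRCh38.p14, from which coordinates and upstream bases come. Transcripts and exons are from GENCODE 44. The scripts ran in Python 3.11.15 with pandas 2.3.3, numpy 2.4.6 and matplotlib 3.10.9, after being tested on simulated data with known answers.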

Additional observations from a re-analysis of the deposited data

How the results depend on the processing

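With a pseudocount of 1, all 8 genes kept their direction, and the log2 ratios moved by 0.0040 to 0.33, the most for *IL21R*, to -4.34. At a limit of 4 times, 5 of the 7 lower genes were counted, without *CD68* and *NFKB2*, and *CR2* still was, while the table had 61 lower and 55 higher genes. Above the lower quartile of mean value, 81.7, 6 of the 8 genes were left, without *IL21R* and *CD3D*, with a median log2 ratio of -2.06. Ranking by the deposited value in place of the value per kilobase changed 5 of 8 ranks in control cells and 2 of 8 in TRIAC-treated cells, and those of *CD68*, *CR2* and *IL21R* in neither group. Leaving out a replicate was not run, because the table gives 1 value per group. No paired analysis was possible because the columns carry no replicate number. The depth behind the low values, such as that of *IL21R* with TRIAC, is unknown, and values per library were not analysed here.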
